A study of Mus musculus with 3 samples.

Results

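The nuclear factor I genes Nfia, Nfib, Nfic and Nfix were examined in a map of TBX5 binding in fetal mouse lung, and 99 of its 28381 peaks were counted for them: 47 for Nfib, 40 for Nfia and 6 each for Nfic and Nfix. A peak was counted for a gene when its summit lay inside the gene body, or when the nearest end of any RefSeq protein-coding gene, within 350 kb, was an end of that gene. The members were thus chosen by the measured position of the peaks, so their number and place are given as descriptions, with no test. TBX5, a T-box transcription factor, was mapped by ChIP-seq, the sequencing of DNA precipitated with an antibody to the protein, in 2 libraries, each from 1 whole lung of a CD-1 mouse embryo at day E14.5, beside 1 library of input chromatin. All 3 libraries carry lung in their titles, while the source given for the input and for the second ChIP library (replicate 2) is heart. They are represented by 1 peak list in mouse build mm10 with no value per library, so no spread between replicates could be measured and their depth is not known. A map of binding holds no levels of RNA, so the tissue could not be checked against marker genes, and nothing here measures whether the genes were active.

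Nuclear factor I (NFI) proteins are transcription factors that bind DNA as dimers at a palindrome of TTGGC and its complement, and vertebrates have a gene each for the A, B, C and X forms. In mice, Nfib is needed for the lung to mature before birth, in the mesenchyme as well as the epithelium, Nfia and Nfix for the development of glia and neurons, Nfix also for fetal skeletal muscle, and Nfic for the roots of teeth. TBX5 is known from the heart, the forelimb and the lung mesenchyme, and T-box proteins recognise the core letters AGGTGT.

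Sequences upstream of listed transcript starts are shown for 3 of the 4 genes, and no peak lay over these starts. The closest peak edge was 375 bp from a listed start for Nfix, 1755 bp for Nfia and 2641 bp for Nfic. RefSeq promoter windows of GRCm38.p6, the assembly of mm10, run from 250 bases before a start to 50 after it, and 1 was matched for Nfia, 1 for Nfic and 4 for Nfix. Nfib was not matched, and the long noncoding RNA gene Gm11266, which starts just above the upper end of Nfib, is shown in its place. "Lower" and "upper" mean lower and higher coordinates here. Capitals mark the core T-box letters AGGTGT or the NFI letters TTGGC, on either strand, and each sequence is written 5′ to 3′ on the strand of its gene, up to the start or to the end of a match just after it.
Nfia, plus strand, chr4:97581693-97581951: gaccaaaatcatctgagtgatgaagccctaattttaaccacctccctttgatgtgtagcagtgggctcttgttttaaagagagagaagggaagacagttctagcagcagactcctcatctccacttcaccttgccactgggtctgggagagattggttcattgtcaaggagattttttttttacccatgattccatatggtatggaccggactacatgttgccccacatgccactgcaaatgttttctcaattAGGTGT
Nfix, start at 84775828, minus strand, chr8:84775829-84776078: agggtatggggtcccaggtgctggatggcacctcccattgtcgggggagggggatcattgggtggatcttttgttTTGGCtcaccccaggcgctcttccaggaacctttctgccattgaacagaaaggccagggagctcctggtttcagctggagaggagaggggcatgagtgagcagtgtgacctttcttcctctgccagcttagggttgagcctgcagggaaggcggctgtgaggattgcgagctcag
Nfix, start at 84772875, minus strand, chr8:84772868-84773125: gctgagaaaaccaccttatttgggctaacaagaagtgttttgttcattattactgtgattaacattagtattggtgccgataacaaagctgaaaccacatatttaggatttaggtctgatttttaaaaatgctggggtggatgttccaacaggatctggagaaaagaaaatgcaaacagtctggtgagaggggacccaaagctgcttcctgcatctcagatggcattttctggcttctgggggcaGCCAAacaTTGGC
Nfic, minus strand, chr10:81427174-81427423: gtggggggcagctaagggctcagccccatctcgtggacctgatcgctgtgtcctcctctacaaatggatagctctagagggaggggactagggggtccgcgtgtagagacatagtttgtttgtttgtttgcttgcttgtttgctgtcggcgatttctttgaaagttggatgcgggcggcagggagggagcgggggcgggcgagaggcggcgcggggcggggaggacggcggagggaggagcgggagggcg
Gm11266, plus strand, chr4:82507739-82507988: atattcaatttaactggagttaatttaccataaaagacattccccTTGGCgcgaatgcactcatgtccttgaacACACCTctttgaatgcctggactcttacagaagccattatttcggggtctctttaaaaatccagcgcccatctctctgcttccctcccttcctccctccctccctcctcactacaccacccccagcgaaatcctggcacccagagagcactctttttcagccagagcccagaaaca

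The letters AGGTGT occurred in the window of Nfia, from the 4th base of the transcript, and, on the opposite strand, 176 bases before the start of Gm11266. They were in none of the windows of Nfic or Nfix. Of all 32851 RefSeq promoter windows of 300 bases, 13.7% held these letters on either strand. The letters TTGGC, present in 46.7% of all windows, occurred in 3 of the 4 Nfix windows and in that of Gm11266. In the Nfix window at 84772875 they stood on both sides of the start, from 5 bases before it on the opposite strand and from the 4th base of the transcript on the same strand. The full NFI palindrome, TTGGC and GCCAA with 5 bases between them, was in none of the 7 windows of these genes and in 0.0365% of all. All 7 windows lay outside every peak. Such matches describe the letters of these windows and are not measured sites of binding.

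Nfib carried the strongest TBX5 peaks of the family. Its body of 216.6 kb (chr4:82290173-82506751) held 17 peaks, with 20 below it and 10 above it. A fold enrichment is the ratio of ChIP signal at a summit to its local background, as given by the authors' peak caller with a −log10 q, and both are used only inside this list, to describe peaks and put them in order. The peak with the highest −log10 q of the family lay inside Nfib, 68.8 kb from its upper end, at chr4:82437718-82438472, with 63.5-fold enrichment and a −log10 q of 252.9, the 23rd highest of the list. The next lay inside the other end of the gene, 16.1 kb from the lower end, at chr4:82306040-82306487 (48.5-fold, −log10 q 154.1, 125th in the list). The third lay far outside, 290 kb below the gene at chr4:81999740-82000256 (31.6-fold, −log10 q 101.1, 408th). The fourth lay 16.8 kb below the gene at chr4:82273152-82273723 (14.4-fold, −log10 q 70.6). It ranked 865th by −log10 q but 3033rd by fold. These were the only NFI family peaks that stood in the top 1000 of the list by −log10 q, a share of 4.04% of the 99, against 3.52% of the whole list.

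**Figure D1:**
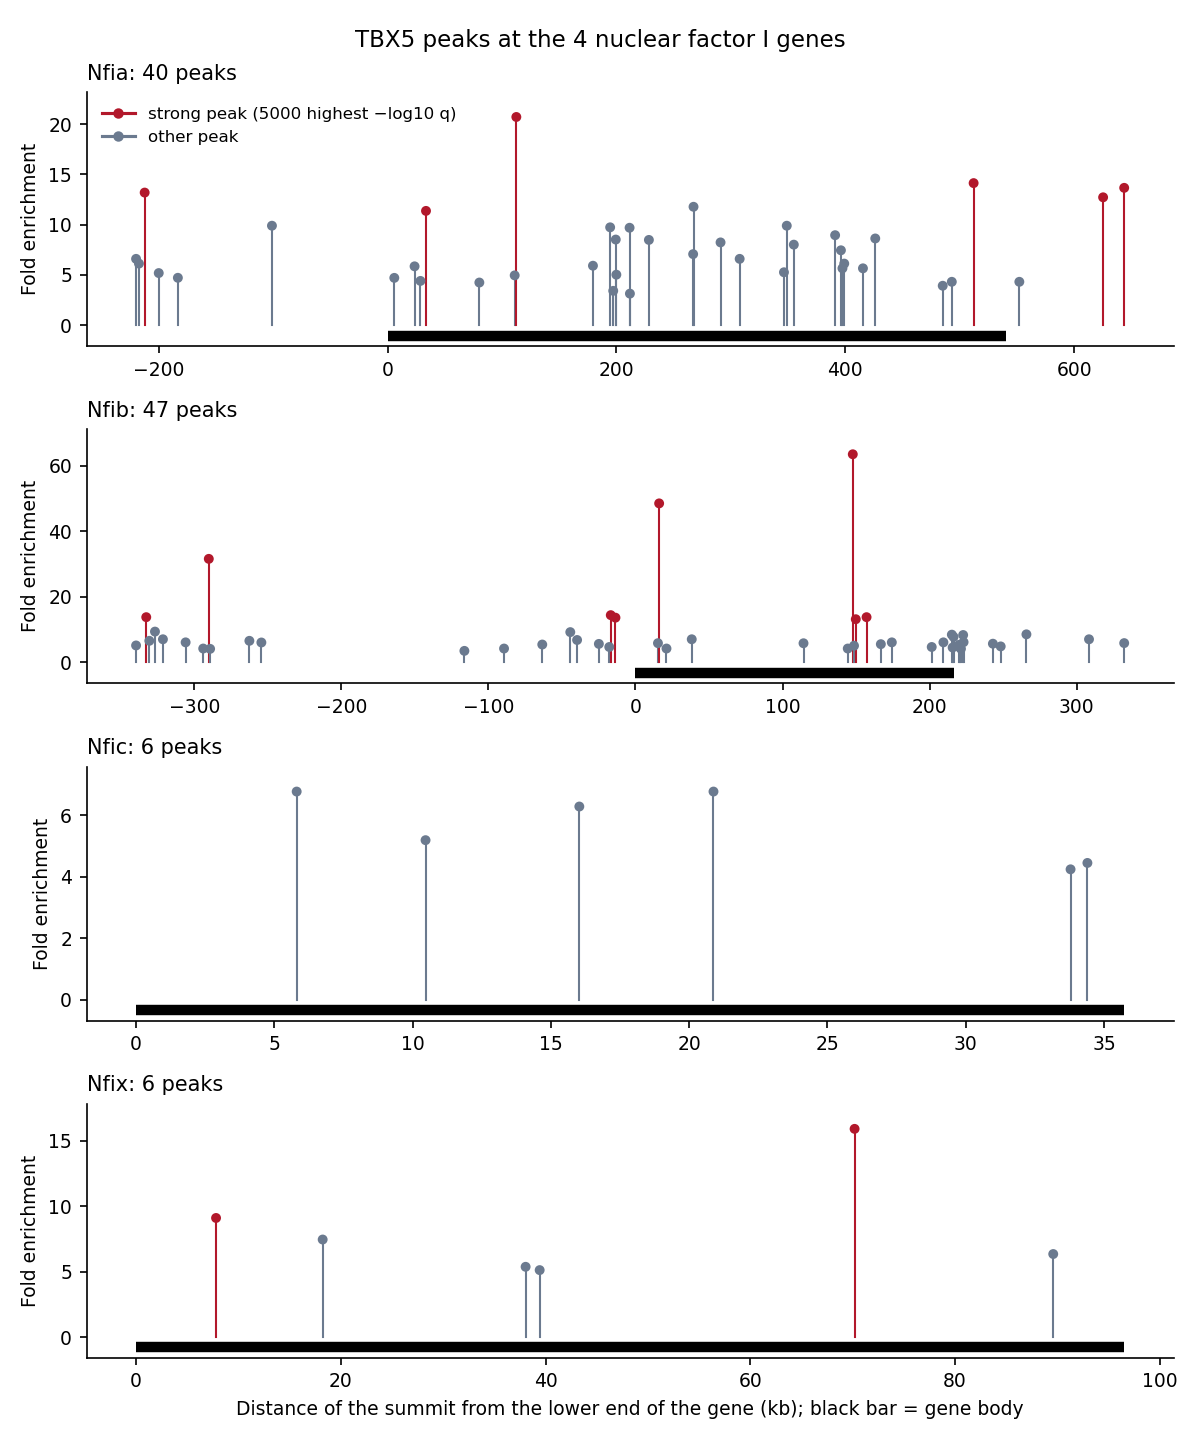
Fold enrichment of each TBX5 peak (vertical axis, linear, its own scale in each panel) against the distance of its summit from the lower end of Nfia, Nfib, Nfic or Nfix in kb (horizontal axis), with the gene body as a black bar. Red marks the 16 strong peaks and grey the others. Nfib peaks reached 63.5-fold and lay on both sides of the gene, while the peaks of Nfic and Nfix all lay inside the gene.

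A peak in the top 5000 by −log10 q is called strong below (a value of at least 21.3), and 17.6% of the list was strong by this rule. Nfib had 8 strong peaks, 4 inside the gene and 4 below it, and 0 of its 10 peaks above the gene was strong. Of the other 4 strong peaks, a pair lay just above the highest one: chr4:82439801-82440434 (13.2-fold) and chr4:82447165-82447587 (13.8-fold). The last pair lay 13.6 kb below the gene at chr4:82276286-82276774 (13.7-fold) and 333 kb below it at chr4:81957120-81957589 (13.8-fold). Each of the 4 highest Nfib peaks had a much weaker peak close by. A 5.10-fold peak lay 837 bp from the summit of 63.5-fold, one of 5.88-fold lay 803 bp from that of 48.5-fold, one of 4.14-fold lay 895 bp from that of 31.6-fold, and one of 4.71-fold lay 1023 bp from that of 14.4-fold. Whether such pairs are separate sites cannot be told from the list.

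The upper end of Nfib held many peaks, none of them strong. The strand of Nfib was not in the sources used here, so neither end is called its start. Within 10 kb of that end lay 9 peaks, of 4.16 to 8.48-fold (median 6.13-fold) and with a −log10 q of 2.88 to 19.6, and 0 of them was strong. The widest Nfib peak, 1337 bp at chr4:82506161-82507497, ran across the highest annotated coordinate of the gene with its summit 0.258 kb inside (7.80-fold). A 4.55-fold peak at chr4:82505792-82506003, 0.873 kb inside, was the other peak within 1 kb of an end of any of the 4 genes. Above the gene the peaks ran into Gm11266 (chr4:82507989-82547292), which held 7 of them, of 4.16 to 8.37-fold. With summits joined wherever they lay within 10 kb of each other, the upper end formed a group of 10 peaks over 22 kb. The list held 19606 such groups, single peaks included, and 28 of them had 10 peaks or more. Around the strongest Nfib peak the group had 7 peaks over 30.2 kb, 3 of them strong.

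**Figure D2:**
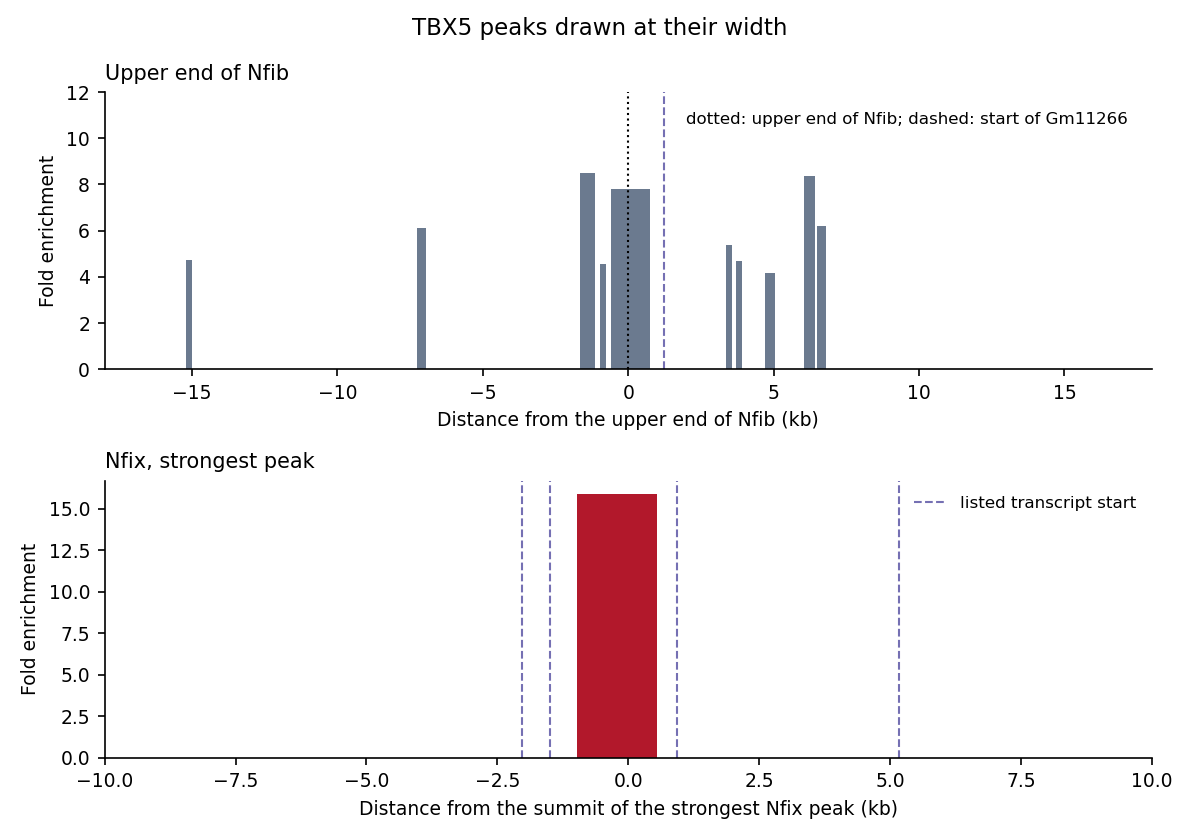
TBX5 peaks drawn at their width, with fold enrichment as height (linear axis from 0), by distance in kb from the upper end of Nfib (top) and from the summit of the strongest Nfix peak (bottom), with red for strong peaks. At Nfib, 9 peaks that were not strong lay within 10 kb of the gene end, while at Nfix a peak of 15.9-fold lay between listed transcript starts (dashed lines).

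Below Nfib, a stretch of 847 kb without a protein-coding gene separates it from Mpdz, which encodes a scaffold protein with PDZ domains. It held 45 peaks, 9 of them strong, of which 20 peaks, 4 of them strong, were counted for Nfib. Of the other 25, 22 lay nearer to Mpdz and 3 lay nearer to Nfib but beyond the limit of 350 kb. Just inside the limit stood a 5.18-fold peak at 340 kb, and just outside it a 5.49-fold peak at 361 kb. The strongest peak not counted, at chr4:81744456-81745415 (93.3-fold), was the second highest of the whole list by −log10 q. It lay 302 kb from Mpdz, 545 kb from Nfib and inside the long noncoding RNA gene Gm11412, 1249 bp from an end of that gene. Also not counted were peaks of 41.5-fold (chr4:81536758-81537227) and 26.8-fold (chr4:81563492-81564017), 94.1 and 121 kb above Mpdz. The rule goes by distance alone and does not say which gene, if any, these regions act on. Within the stretch, the longest run without a summit in the Nfib locus spanned 138 kb, from 82035873 to 82173720.

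**Figure D3:**
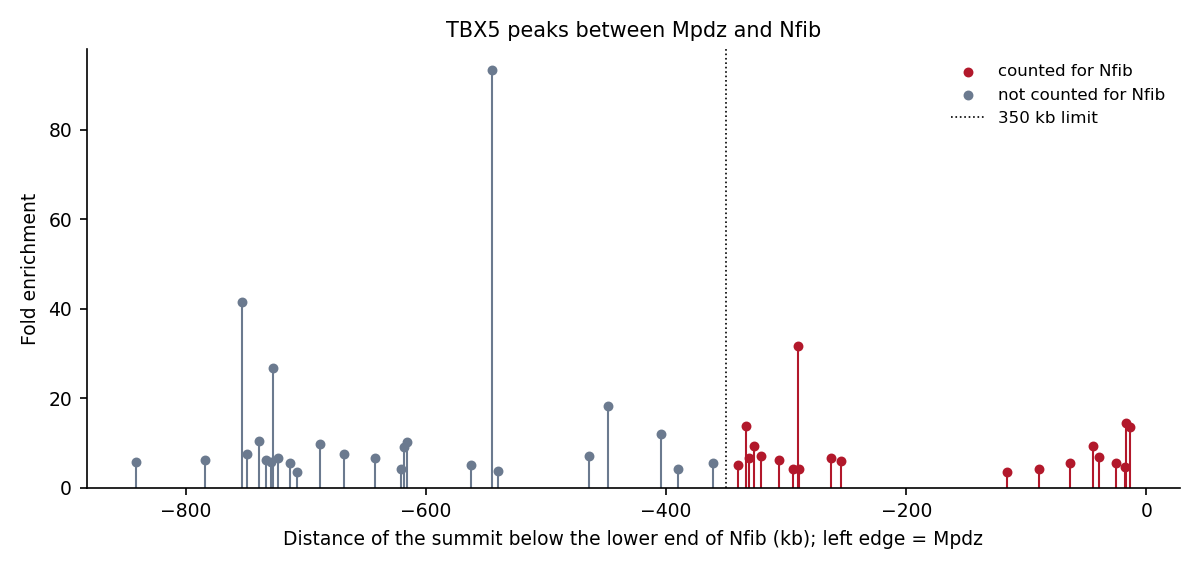
Fold enrichment (vertical axis, linear) of the 45 TBX5 peaks between Mpdz and Nfib against the distance of the summit below the lower end of Nfib in kb (horizontal axis). Red peaks were counted for Nfib and grey ones were not. The highest peak, of 93.3-fold, lay outside the limit of 350 kb (dotted line).

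Nfia, with the longest body of the 4 genes (540.8 kb, chr4:97578066-98118876), held most of its peaks inside the gene: 31 of 40, with 6 below and 3 above. Its fold values spanned a narrower range than those of Nfib, from 3.14 to 20.7 with a median of 6.60, against 3.53 to 63.5 with a median of 6.13 for Nfib. At or over 10-fold were 7 of the 40 Nfia peaks and 8 of the 47 Nfib peaks. The strongest Nfia peak lay inside the gene, 112 kb from its lower end, at chr4:97689851-97690846 (20.7-fold, −log10 q 49.5, 1618th in the list). At 996 bp it was also the widest Nfia peak, and a 4.95-fold peak lay 1450 bp from it. The next by −log10 q lay inside the gene near its upper end, at chr4:98090030-98090379 (14.1-fold, −log10 q 27.8), and the third lay 103 kb above the gene at chr4:98221538-98221972 (13.7-fold, −log10 q 26.4). Strong peaks numbered 6, namely 3 in the body, 1 below and 2 above. Those above the gene both lay inside the pseudogene Gm12691. Nfia peak values at the border of the strong class were close: 11.4-fold with a −log10 q of 22.6 inside it and 11.8-fold with 21.0 outside it.

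Nfia is read from its lower end upward, and the start in the RefSeq promoter table stands at 97581943. The nearest peak (chr4:97583698-97584111, 4.70-fold) had its summit 1.93 kb downstream of that start, and its edge was 1755 bp away. The Nfia window shown above was therefore outside every peak. The same peak lay inside the noncoding gene E130114P18Rik, which overlaps the first part of Nfia. The longest stretch of the Nfia locus without a summit (107 kb), from 97477157 to 97583697, began below the gene and ran across its lower end and the listed start. Neighbouring summits in the Nfia locus were 15.0 kb apart in the median, against 7 kb for Nfib. The Nfia locus formed 24 groups of at most 4 peaks when summits within 10 kb were joined, against 18 groups of at most 10 for Nfib.

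Nfix had 6 peaks, all inside its body of 96.53 kb (chr8:84704712-84801238), and 2 of them were strong. The stronger was the widest peak of the family, 1524 bp at chr8:84773930-84775453 (15.9-fold, −log10 q 50.2, 1584th in the list). It lay between 2 of the 4 transcript starts listed for Nfix, which is read from its upper end downward. Its edges were 375 bp from the start at 84775828 and 520 bp from the start at 84773410, so it covered neither, and its summit lay 926 bp downstream of the first. The other strong peak lay 7.81 kb inside the lower end at chr8:84712182-84712968. It had 9.10-fold enrichment and a −log10 q of 25.7, 3996th by −log10 q and 7205th by fold. The third by −log10 q, at chr8:84722773-84723089, had 7.45-fold enrichment (−log10 q 12.3). Of the 6 peaks, 4 lay nearer to the end of Lyl1 than to that of Nfix, since the annotated ends of these genes overlap by a few bases, and Lyl1, which encodes a transcription factor of blood cells, has the same 4 peaks by the rule. Of the Nfix peaks, 5 stood among the 14191 with the highest −log10 q, which are 50% of the list.

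Nfic had 6 peaks, all inside its body of 35.73 kb (chr10:81396191-81431919) and of 4.24 to 6.77-fold, where the list has a median of 6.27 and an upper quartile of 9.22. By −log10 q, 3 of the 6 stood in the highest 50% of the list. Its strongest by −log10 q (chr10:81412078-81412387) had 6.28-fold enrichment and a −log10 q of 9.87. The next, at chr10:81401700-81402159 and chr10:81416981-81417222, had the same values, 6.77-fold with a −log10 q of 9.49. None of the 6 was strong (0%, exact 95% binomial interval 0 to 45.9%). The nearest peak to the start listed for Nfic, which is also read downward, lay 2.81 kb upstream of it (chr10:81429814-81430315, 4.24-fold), and a 4.45-fold peak stood 609 bp from that one. Both lay inside the gene body, 1.94 and 1.33 kb from its upper end. The protein-coding genes on either side, Smim24, 1.11 kb below, and Celf5, 27.3 kb above, had 0 peaks.

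The genes beside the other members had peaks of their own. Mpdz had 23, 3 of them strong, and Zdhhc21, which encodes a palmitoyltransferase and lies above Nfib, had 3, of which 1 was strong. Beside Nfia, Gm12695 had 6 peaks, 1 of them strong, and Tm2d1 had 2. Above Nfix, Dand5, which encodes a secreted antagonist of nodal, had 1.

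The peak counts of the 4 genes were also scaled by length, as a description. The genes were chosen with earlier results of these data known, so no excess is read from the densities, ranks or percentages below. The territory of a gene is all sequence where the rule would count a peak for it. It was 1009 kb for Nfia, 712.6 kb for Nfib, 105.3 kb for Nfix and 49.94 kb for Nfic. Nfib had 6.60 peaks per 100 kb of it (exact 95% Poisson interval 4.85 to 8.77), Nfia 3.96 (2.83 to 5.40), Nfix 5.70 (2.09 to 12.4) and Nfic 12.0 (4.41 to 26.2). The 6143 protein-coding genes with a territory of at least 100 kb had a median of 0.776 (quartiles 0 and 1.83). Among them Nfib lay above 98.8%, Nfix above 97.9% and Nfia above 94.1%, while Nfic, with under 100 kb, was not placed. Of the 6 Nfix peaks behind its value, 4 were also counted for Lyl1, and by nearest gene end alone Nfix had 2. By number, Nfib ranked 4th of 21631 protein-coding genes and Nfia 8th. The limit of 350 kb was chosen with the stretch between Nfib and Mpdz in view, and the 47 Nfib peaks became 34 at a limit of 100 kb and 25 with all annotated genes as neighbours, for which ranks and densities were not computed. The others of the first 5 were Lrmda (69 peaks), Rad51b (59), Rbms3, which encodes an RNA-binding protein (55), and Bcas3 (44). The intervals cover counting error only, and those of the 4 genes overlap one another. They take each peak as independent, though many summits stood close together: the 47 Nfib peaks became 39 with summits within 1 kb counted once.

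**Figure D4:**
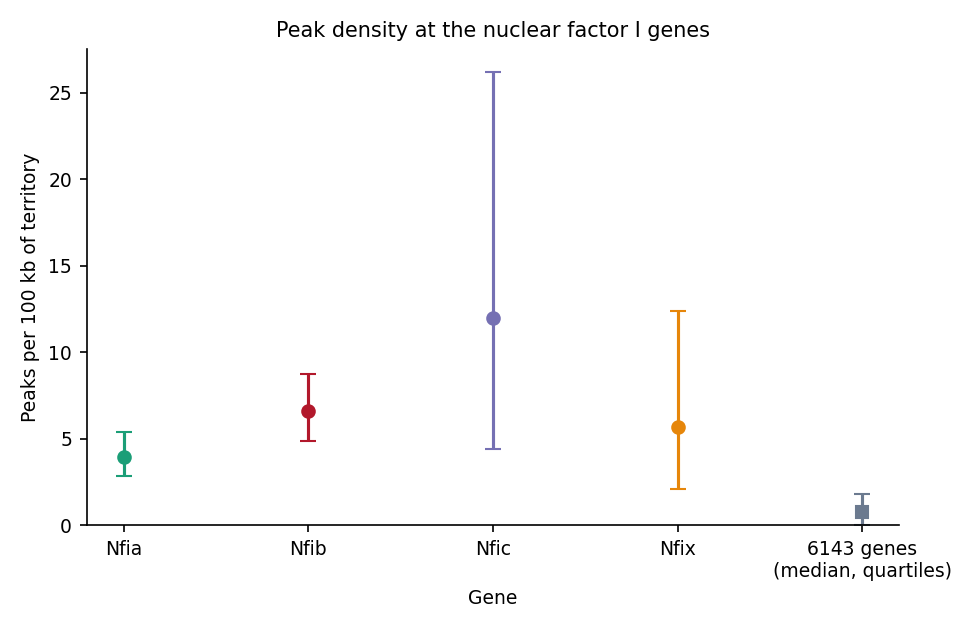
Peaks per 100 kb of territory (vertical axis, linear from 0) for each NFI gene, with exact 95% Poisson intervals that cover counting error only, and for the 6143 genes with at least 100 kb of territory (square, median with quartiles). Nfia, Nfib and Nfix had 3.96 to 6.60 peaks per 100 kb, against a median of 0.776, and Nfic, at 12.0, has a shorter territory than the genes of that median.

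In strength, NFI peaks lay close to the rest of the list. Of the 99 peaks, 16 (16.2%, exact 95% binomial interval 9.53 to 24.9%) were strong, against 4984 of the 28282 other peaks (17.6%), a share near that of the list. The median fold was 6.13 (quartiles 5.06 and 8.60), against 6.27 (5.07 and 9.25) for the other peaks. At or over 10-fold were 16.2% of NFI peaks and 21.2% of the others. NFI peaks were 308 bp wide in the median, against 291 bp. Strong peaks made up 8 of 47 peaks for Nfib (17.0%, 7.65 to 30.8%) and 6 of 40 for Nfia (15.0%, 5.71 to 29.8%). For Nfix they made up 2 of 6 (33.3%, 4.33 to 77.7%), and these intervals overlap. The binomial intervals also take each peak as independent, though many summits stood close together, so the genes are not compared by them. All 4 genes had a peak and 3 had a strong one, where the same rule gave a peak to 42.7% of all protein-coding genes and a strong one to 13.1%. The 4 genes were chosen with earlier results of these data known. Their territories ran from 49.94 to 1009 kb, against a median of 48.8 kb for all protein-coding genes, so no excess is read from these counts.

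**Figure D5:**
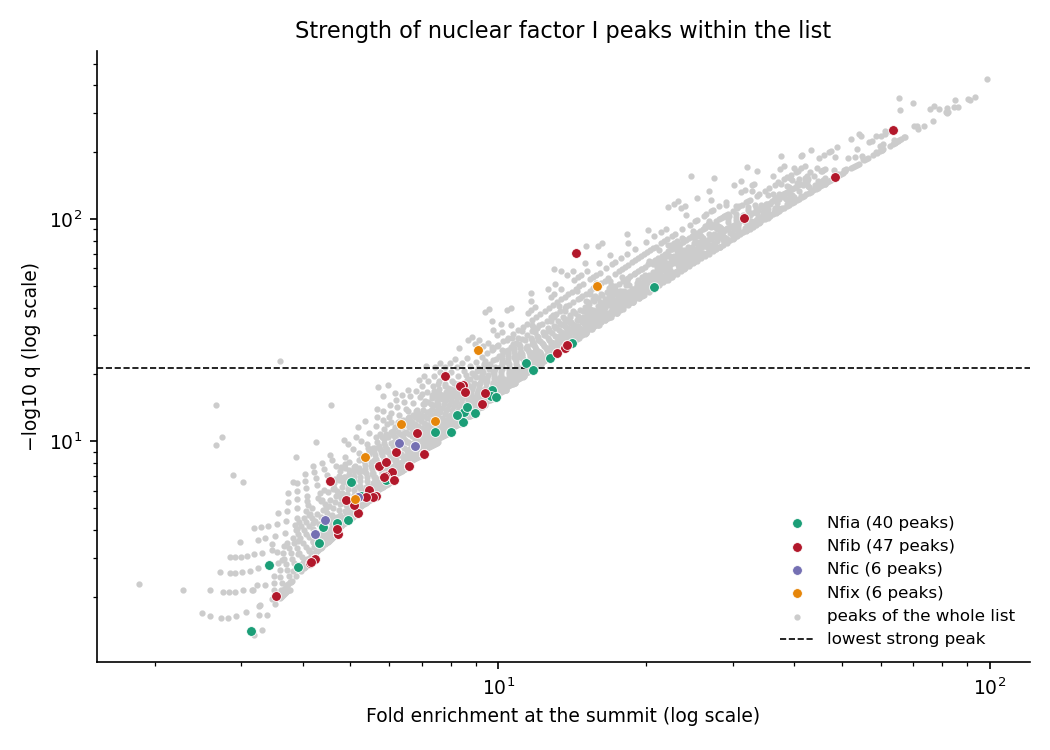
Fold enrichment at the summit (horizontal axis, log scale) against −log10 q (vertical axis, log scale) for the peaks of Nfia, Nfib, Nfic and Nfix in colour, over the whole list in grey, with the lowest strong peak as a dashed line. NFI peaks run along the body of the list, and 4 Nfib peaks reach a −log10 q of 70.6 to 252.9.

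NFI peaks lay mostly away from gene ends. Only 2 of 99 (2.02%), both at Nfib, had a protein-coding gene end at most 1 kb away, against 17.6% of the other peaks. Inside protein-coding genes lay 60 (60.6%), against 52.2%. Another summit stood within 10 kb of 71.7% of NFI peaks, against 50.1% of the others, and within 1 kb of 22.2%, against 16.9%. The rule fixes part of this, because 4 genes have few ends and the long stretches around Nfia and Nfib hold no other gene. Of the 99 peaks, 20 (20.2%) lay inside an annotated noncoding gene or pseudogene, against 12.9% of the others. The fold values come in steps. Of NFI peaks, 38 (38.4%), and 34.3% of the list, had a fold within 0.001 of a whole multiple of 1 step. The step, rounded here, was 0.471, and the multiples were taken before rounding. Both fold and −log10 q were shared exactly with another peak of the list by 93 of the 99 (93.9%), and by 96.0% of the whole list. Among peaks on these multiples, no difference smaller than 0.471 can be seen.

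Genes known from other work as partners or targets of NFI proteins were given the same rule, and 13 of 16 had a peak (81.2%), against 42.7% of all protein-coding genes. A strong peak stood at 4 of the 16 (25.0%), against 13.1%. The list was drawn up with earlier results of these data known and its genes had longer territories, 76.9 kb in the median against 48.8 kb for all protein-coding genes, so no excess is read from these shares. Hes1, a Notch target that NFI proteins restrain in the brain, had 12 peaks, 4 of them strong, the highest 28.9 kb outside the gene at chr16:30096437-30096902 (42.9-fold). Dspp, a dentin gene regulated by NFIC, had 2 peaks, both strong, the higher 9.13 kb outside at chr5:104161194-104161832 (25.5-fold). Klf4, a zinc-finger factor linked to NFIC in teeth, had 8 peaks with 1 strong (18.8-fold, 119 kb outside). Sox9, a partner of NFIA in gliogenesis, had 8 peaks with 1 strong (12.7-fold, 332 kb outside). Mef2c, a muscle factor gene, had 12 peaks, none strong, and Ezh2, Fabp7 and Sftpc had 0, all named after their values were seen. The other 8 genes had 1 to 4 peaks each, none strong. The territories of the 16 genes ran from 5.486 kb (Sftpc) to 790.7 kb (Mef2c), and the counts were not scaled by them.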

How the data were processed

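TBX5 ChIP-seq peaks of E14.5 CD-1 mouse embryos were analysed from 1 list covering 2 ChIP libraries and 1 input library. The tissue is taken as whole lung from the titles, while the source given for the input and the second ChIP library is heart. Per the submitters' processing notes, the authors used Bowtie2, SAMtools and MACS2 with build mm10. Versions, settings and whether the libraries were merged were not given in the sources used here. The list, deposited by the authors without a header, has the layout that MACS2 writes: a score, a fold enrichment ratio, the −log10 of a q-value, and a summit offset in bp. The units come from that layout and the values. The deposited score was not used. The file name records the removal of blacklisted regions. A fold over local background depends on library depth, which is unknown.

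Summits, 1-based, were set against 21631 protein-coding genes of a RefSeq table (GRCm38.p6, all 4 members matched by symbol). The table has neither strand nor exons, so exons, introns and UTRs are not separated. Strand and starts came from the promoter table, which had no match for Nfib. Sequence under the peaks was not analysed here. Python 3.11.15, pandas 2.3.3, NumPy 2.4.6, SciPy 1.17.1 and matplotlib 3.10.9 were used, and the assignment was checked against a direct search on simulated data. With no value per library and members chosen by peak position, no test was run. Exact binomial and Poisson intervals cover counting error only. Members and lists were chosen with earlier results of these data known, and 1 gene of the partner and target list is not reported here.

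Named were the 4 members, the protein-coding gene on either side of each, the partner and target genes with a strong peak and the 5 genes with the most peaks. Given in full were the 10 NFI peaks with the highest −log10 q, the 3 highest of each gene, the highest fold and each peak within 1 kb of an end of an NFI gene. The 53 alternatives changed the distance limit, the peaks used, the assignment, the genes, the position and the joining of close summits.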

Additional observations from a re-analysis of the deposited data

How the results depend on the processing

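Of 53 alternative values, 38 stayed close to the value reported (counts within 1.5 times, shares within the exact binomial interval) and 15 did not, of which 13 rest on using fewer peaks or another number of highest peaks. The family count of 99 became 16 with only the 5000 highest peaks and 47 with the highest 50%. It ran from 68 to 102 under the other alternatives, with 79 at a limit of 100 kb, 102 at 1 Mb and 87 with summits within 1 kb counted once. Counting all annotated genes as neighbours left Nfib with 25 peaks in place of 47 and the family with 68, since noncoding genes stand between. By nearest gene end alone, Nfix had 2 peaks in place of 6. With a limit of 100 kb Nfib had 34 peaks and Nfia 33. The strong share of 16.2% became 4.04% for the 1000 highest peaks and 34.3% for the 10000 highest, where the whole list has 3.52% and 35.2%. It was 16.2% for the 5000 highest by fold. Of the 16 partner and target genes, 13 had a peak, against 8 with the highest 50% of peaks (28.0% of all genes) and 4 with the 5000 highest (13.1%). No paired analysis was possible because the list has no value per library, and for the same reason no library could be left out. The unknown depth limits what the lack of a peak shows.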
